A study of Rattus norvegicus with 50 samples.

Results

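The immediate early genes described here were Fos, Fosl1, Jun, Junb, Egr1, Egr2, Nr4a1, Ier2, Ier3 and Myc, 10 of the 14217 genes measured on rat expression arrays hybridised with liver RNA. Each gene was found by its symbol among probe sets annotated to 1 gene, and where a gene had several probe sets the one with the highest mean over all 50 arrays was used. All 10 symbols were found. The 50 livers came from female Brown Norway (Bn/Crl) rats of MHC haplotype RT1n, 9 to 11 weeks old, with 1 array per rat in 17 groups of 3 rats, or 2 for galactosamine at 48 h. Combination rats received oral nevirapine at 150, then 100 and, after a pause, 75 mg/kg over 7 d, then 750 mg/kg of galactosamine into the peritoneum while oral dosing went on, and were sampled 3 h, 24 h, 48 h and 8 d after the injection. Galactosamine rats received the injection with oral doses that held no nevirapine, and were sampled at the same times. Nevirapine rats received no galactosamine and took the oral drug on a schedule of 150, then 100 and 75 mg/kg, from a first dose of 150 mg/kg. They were sampled at 3 h, 24 h, 48 h and 15 d, and those at 3 h, 24 h and 48 h also had a sham injection. Vehicle rats received sham doses and were sampled at 3 h, 24 h, 48 h, 8 d and 15 d. The study examined the 8 d after the injection because the 2 drugs together led to fibrosis and either drug alone did not.

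The dosing history limits how the times can be matched. Combination rats had taken 8, 9, 10 and 16 oral doses at their 4 times, and nevirapine rats 1, 2, 3 and 16. Outside the 3 h groups, the last oral dose preceded sampling by 2 h. Vehicle, galactosamine and combination rats at 3 h were 3 h past the injection and 5 h past the last oral dose, whereas nevirapine rats at 3 h were 1 h past a sham injection and 3 h past the drug. In the comparison of nevirapine with vehicle at 3 h, the drug and the time since handling cannot be told apart. Combination rats at 8 d were compared with vehicle rats at 15 d, which matches the length of oral dosing.

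Immediate early genes are switched on within minutes of a stimulus by transcription factors already present in the cell, without new protein synthesis, and their mRNAs are short-lived. Many carry binding sites for serum response factor, which acts with ETS-type partners downstream of the ERK kinases, or for CREB, which acts downstream of cAMP. In liver they are known for their rapid induction after partial hepatectomy, feeding, stress and handling. Fos and Fosl1 encode Fos-family proteins that pair with the Jun-family proteins Jun and Junb to form AP-1. Egr1 and Egr2 encode zinc finger factors, Nr4a1 an orphan nuclear receptor, and Myc a driver of ribosome production and cell growth. Ier2 encodes a nuclear protein whose role in transcription is less well defined, and Ier3 a regulator of cell survival that is not a DNA-binding factor, so the 10 are called immediate early genes here. Galactosamine is an amino sugar that traps uridine nucleotides in hepatocytes and so lowers their RNA synthesis, and nevirapine is an HIV reverse transcriptase inhibitor with known liver toxicity.

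RefSeq promoters (build GRCr8) were given for 6 of the 10 genes, namely Fosl1, Junb, Egr1, Egr2, Nr4a1 and Ier2. The 250 bases before the start given with each promoter are shown for the 5 of these that were called higher than vehicle 24 h after galactosamine. They were searched on both strands for the CArG box of serum response factor, the CREB site TGACGTCA, the AP-1 word TGANTCA, the EGR word GCGNGGGCG, the E-box CACGTG of Myc and the word TATAAA. Capitals mark the matches, and no 2 matches overlapped. The Egr2 window lay inside its gene, which spans chr20:21050149-21055201, and did not precede the gene's outer start. Likewise the Nr4a1 window (chr7:134259888-134260137, plus) lay inside its gene (chr7:134247153-134268044). Fosl1 lies on chr1:212183635-212183884 (plus strand), Junb on chr19:40080876-40081125 (plus), Egr1 on chr18:26736828-26737077 (plus), Egr2 on chr20:21054442-21054691 (minus) and Ier2 on chr19:40399123-40399372 (plus).
Fosl1: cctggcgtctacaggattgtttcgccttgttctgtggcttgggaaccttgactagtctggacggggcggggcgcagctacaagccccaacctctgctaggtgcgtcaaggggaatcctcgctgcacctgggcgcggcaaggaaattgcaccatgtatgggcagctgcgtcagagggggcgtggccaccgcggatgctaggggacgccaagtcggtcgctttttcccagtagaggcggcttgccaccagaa
Junb: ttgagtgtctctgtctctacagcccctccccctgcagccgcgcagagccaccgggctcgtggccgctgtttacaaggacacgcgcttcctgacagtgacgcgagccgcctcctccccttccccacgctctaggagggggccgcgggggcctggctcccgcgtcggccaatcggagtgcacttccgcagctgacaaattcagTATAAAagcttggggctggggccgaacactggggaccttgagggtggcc
Egr1: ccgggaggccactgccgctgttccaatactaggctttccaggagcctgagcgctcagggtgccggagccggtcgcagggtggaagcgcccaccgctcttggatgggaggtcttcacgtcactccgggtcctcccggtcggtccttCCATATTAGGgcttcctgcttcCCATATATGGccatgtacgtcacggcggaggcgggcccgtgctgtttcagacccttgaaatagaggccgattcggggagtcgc
Egr2: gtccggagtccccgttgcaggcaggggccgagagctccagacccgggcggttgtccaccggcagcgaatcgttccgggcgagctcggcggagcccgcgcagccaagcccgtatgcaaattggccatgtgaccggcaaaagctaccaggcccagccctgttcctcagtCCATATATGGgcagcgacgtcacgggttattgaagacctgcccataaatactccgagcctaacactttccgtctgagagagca
Ier2: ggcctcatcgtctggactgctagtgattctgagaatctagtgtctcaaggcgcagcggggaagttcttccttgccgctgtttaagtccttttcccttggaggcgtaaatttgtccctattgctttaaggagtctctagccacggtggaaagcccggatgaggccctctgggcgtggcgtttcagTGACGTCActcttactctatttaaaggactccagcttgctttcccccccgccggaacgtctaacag
A CArG box was found 2 times in Egr1 and once in Egr2, and in 1.50% of all 33469 promoters of the same length. The CREB site was found in Ier2 and in 1.59% of all promoters, and the word TATAAA in Junb and in 12.9% of all. Nr4a1 held 1 EGR word, found in 4.29% of all. None of these 6 promoters held the AP-1 word or the E-box, which were found in 6.34% and 5.59% of all. A match describes letters in this window and was not tested as a binding site.

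Values are deposited log2 signals, in which a difference of 1 is a doubling. Tests are from limma, fitted to all 50 arrays with p-values adjusted over all 14217 genes, errors after a change are standard errors of that fit, and a change was called when its adjusted p was under 0.05. Signals of different genes come from different probe sets and are not compared. A signal under log2 4.37, the highest mean of 27 probe sets for bacterial genes, was not shown to exceed background. Where a rat of the dimmer group lay under it, the fold is given as a lower bound with such rats set to this level. The fitted change beside such a bound uses the measured signals and is not itself a bound. Array medians lay between 4.95 and 5.09. Measured hepatocyte markers, 6 genes including Alb and Ttr, which encode albumin and transthyretin, averaged between log2 12.8 and 13.3 in all 17 groups. The rat with the lowest mean correlation with its group was rat63 (0.979), a combination rat at 3 h. RNA quality was read from the 3′ minus 5′ GAPDH probe set signal, which grows as RNA breaks down and ranged between 0.0089 and 0.860. In whole liver, a change in the number of cells of a type and a change of RNA per cell cannot be told apart.

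Some genes gave probe set signals near background. Fos had a mean over all arrays of 5.06 and lay below the background level in 9 of 17 group means, and Egr2 had a mean of 4.75 and lay below it in 7. Second probe sets exist for both genes. Group means of the second Fos probe set lay between 3.97 and 4.35, where those of the first lay between 3.06 and 8.45. Those of the second Egr2 probe set lay between 3.09 and 3.71, below background, where those of the first lay between 3.97 and 6.52. The 3 probe sets of Jun differed in size in several comparisons. For the combination at 3 h against vehicle they gave 1.52, 1.20 and 0.35, for galactosamine at 3 h against vehicle -0.31, -0.12 and -1.04, and for galactosamine at 24 h against 3 h 2.68, 2.10 and 3.77. For the combination at 24 h against 3 h they differed in sign, with -1.05, -0.83 and 0.53.

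**Figure D1:**
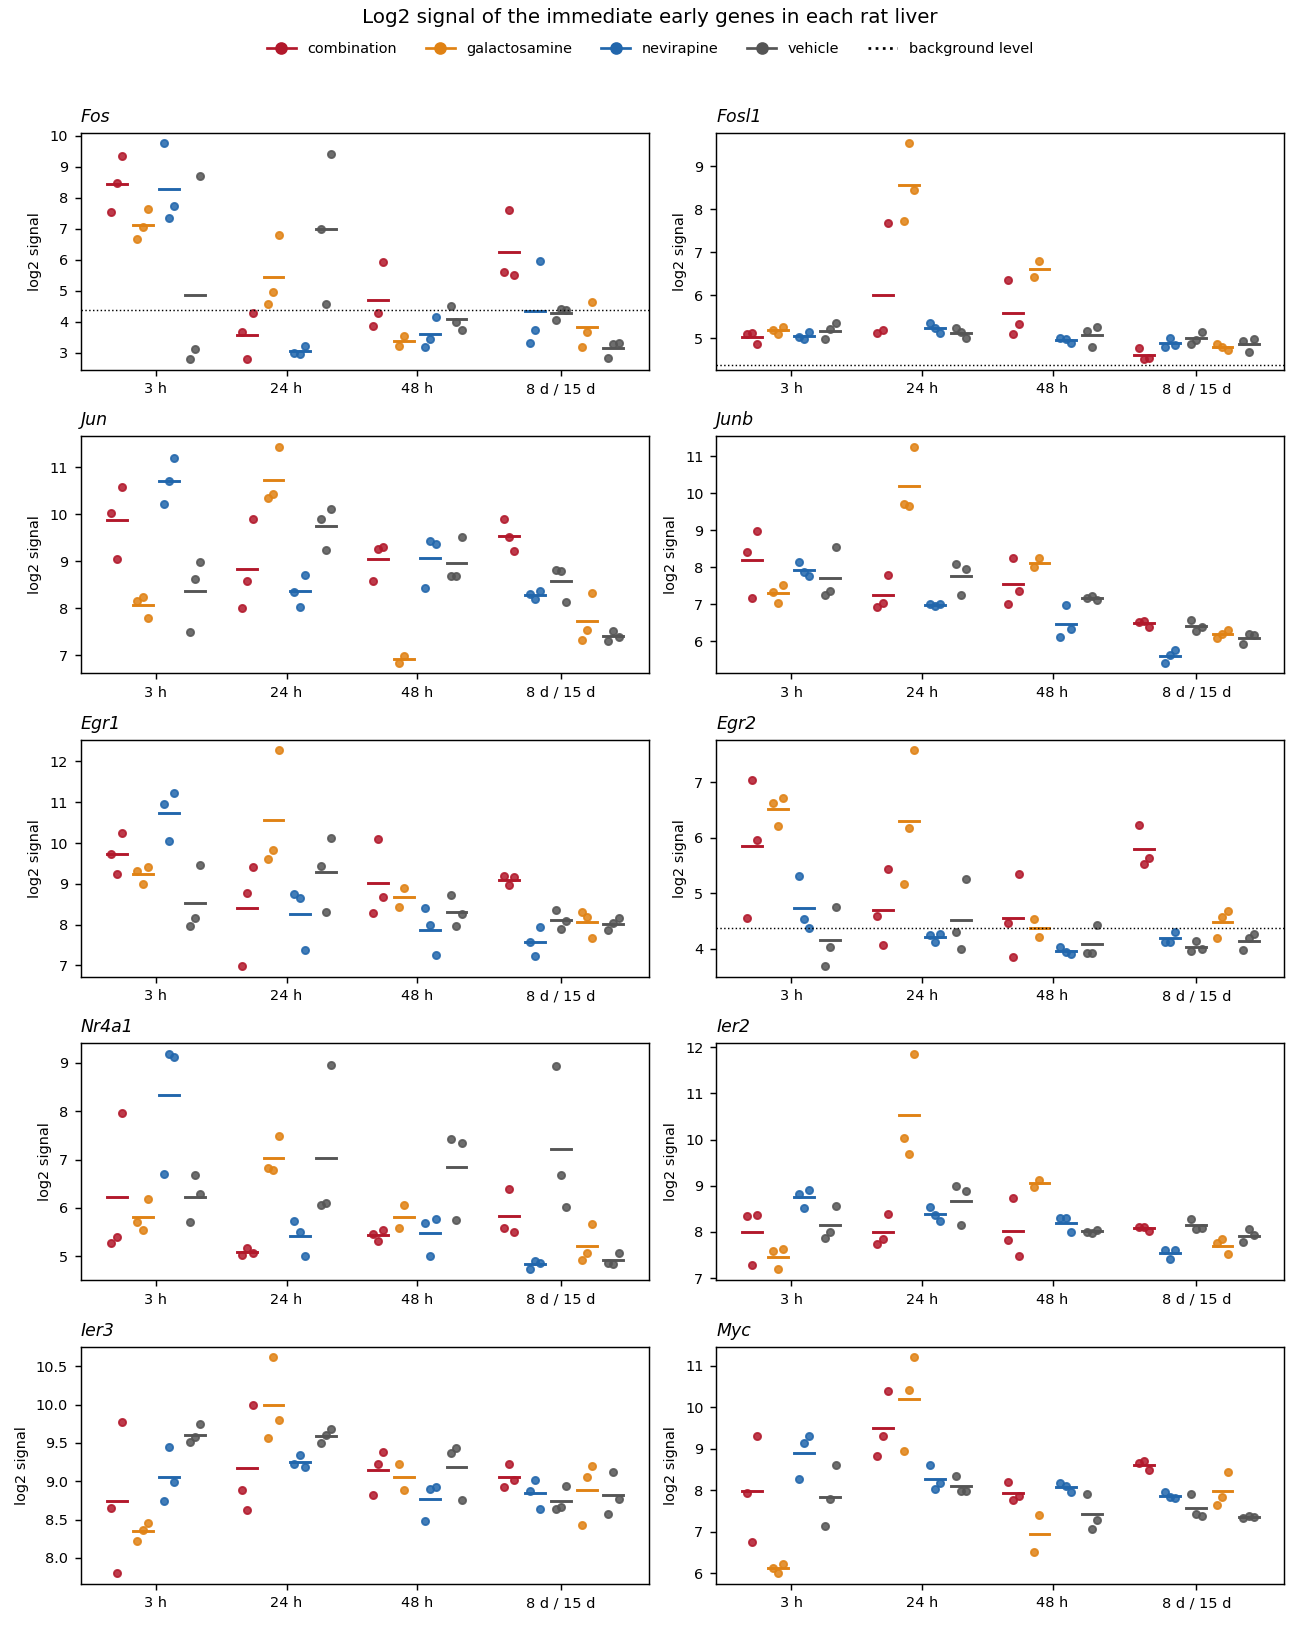
Log2 signal of each gene (vertical axis) in every rat, grouped along the horizontal axis by time of sampling; points are rats, bars are group means, colours are treatments and the dotted line, drawn where it lies in range, is the background level of log2 4.37. The last block holds combination at 8 d, nevirapine at 15 d, vehicle at 15 d, galactosamine at 8 d and vehicle at 8 d, and the highest points of Fosl1, Junb, Ier2 and Egr1 are those of galactosamine rats at 24 h.

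The vehicle rats set the baseline, and several of these genes varied among them. Limma's F test over the 5 vehicle groups called 5 of the 10 genes, Fos, Jun, Junb, Nr4a1 and Ier3, where 29.6% of all genes were called. The GAPDH difference was 0.026 to 0.118 in vehicle rats at 8 d and 15 d and 0.192 to 0.744 at 3 h, 24 h and 48 h. With it as a covariate Nr4a1 and Ier3 were not called (adjusted p = 0.0681 and 0.0964). A fit to vehicle rats alone did not call Fos or Nr4a1 (0.117 and 0.0845) and called Ier2 (0.0307). Ier3 was also lost with a trended and robust prior (0.0616) and with the mean of probe sets (0.0514). Jun and Junb were called in each of these fits. Fos was 2.80, 3.11 and 8.71 in vehicle rats at 3 h and 7.01, 4.56 and 9.43 at 24 h. A single rat at 3 h (rat3) thus lay far above the other two (SD 3.33), and the 3 rats at 24 h were also spread widely (SD 2.43). The F test, which compares the means of the 5 groups, gave an adjusted p of 0.0247 for Fos. Vehicle Fos at 48 h, 8 d and 15 d lay between 2.84 and 4.52 in all rats. Jun averaged 9.74 ± 0.45 in vehicle rats at 24 h and 7.40 ± 0.11 at 8 d (SD, n = 3 each, adjusted p = 4.66e-04 over the 5 groups). Nr4a1 was 8.94, 6.68 and 6.02 in vehicle rats at 15 d against 4.86, 4.83 and 5.06 at 8 d, a difference of 2.30 ± 0.64 (adjusted p = 0.0363). It was the gene called of the 10 between these vehicle groups, where 3.33% of all genes were called, and the call ended without any one of rat13, rat14, rat99, rat100 or rat101, with the highest adjusted p, 0.327, without rat13, and with a trended and robust prior (0.0524). Between vehicle rats at 3 h and at 24 h none of the 10 was called by limma, against 1.19% of all genes, although 2 had an unadjusted p under 0.05. Every comparison with vehicle at 1 time shares the same vehicle rats, so the treatments' changes at that time are not independent.

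The spread between rats of 1 group was larger for these genes than for most others. The residual standard deviation of the fit over 33 degrees of freedom was 1.29 for Fos, 0.84 for Nr4a1, 0.71 for Egr1 and between 0.40 (Ier3) and 0.58 (Egr2) for the other 7, against a median of 0.17 over all genes. For each of the 10, between 97.1% and 100% of genes varied less. The widest groups were vehicle at 3 h for Fos (SD 3.33, n = 3) and vehicle at 24 h for Nr4a1 (SD 1.66, n = 3).

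**Figure D2:**
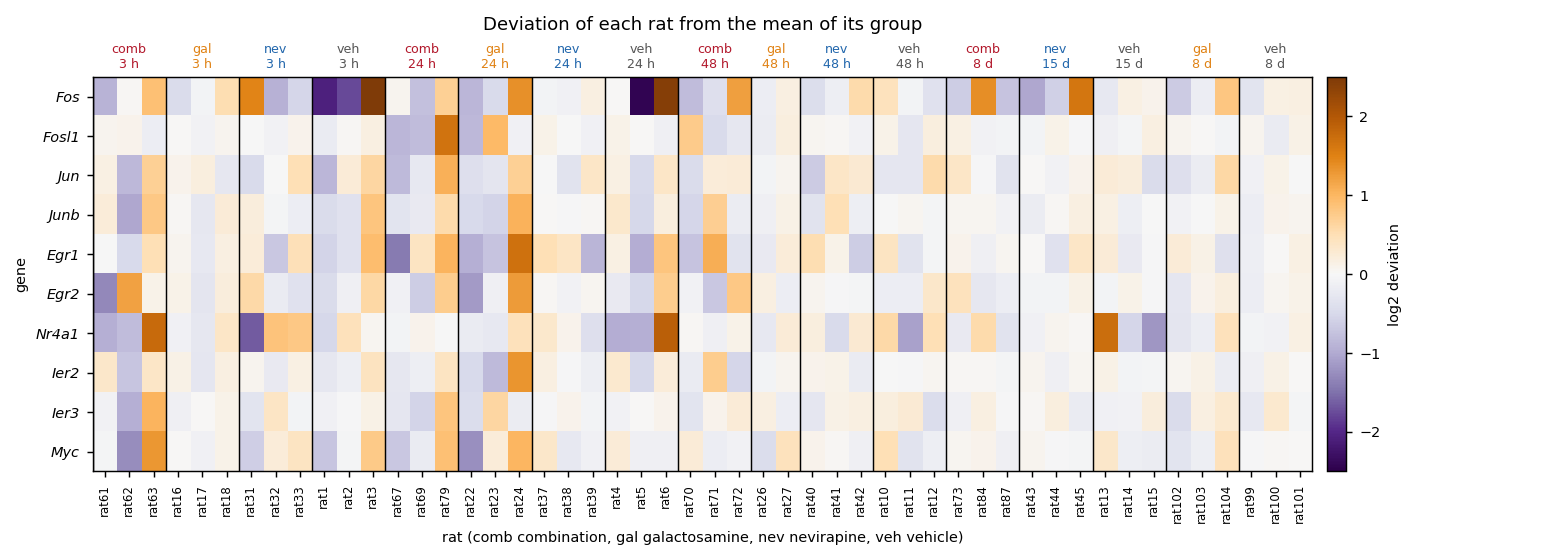
Deviation of each rat (horizontal axis, grouped by treatment and time) from the mean of its group for each of the 10 genes (vertical axis), on the log2 scale as colour, capped at the ends of the colour scale. Columns of 1 colour mark rats in which most of the genes lay on the same side of the group mean, such as rat3, rat24 and rat79 above it and rat22 below it.

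The deviations ran together within rats. Across 50 arrays, with group means removed, the correlation between 2 of the genes was above 0 in 44 of 45 pairs, with a median of 0.34, and it was highest for Junb with Ier2 (r = 0.86) and Egr1 with Ier2 (r = 0.83). These are descriptions, since the points share arrays and their depth of signal. In rat3 (vehicle, 3 h) 10 of 10 genes lay above the group mean, by 0.84 on average. In rat24 (galactosamine, 24 h) it was 8 of 10 genes by 0.86, in rat79 (combination, 24 h) 9 by 0.79, in rat63 (combination, 3 h) 9 by 0.73 and in rat6 (vehicle, 24 h) 8 by 0.65. Rat22 (galactosamine, 24 h) and rat1 (vehicle, 3 h) lay below the group mean in all 10. Calls that end when 1 of these or another rat is left out are named beside the results below.

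At 3 h after the injection, combination livers had more Fos, Jun and Egr2 and less Ier3 than vehicle livers. Of the 10 genes 4 were called, 3 higher and 1 lower, near the share of all genes, 32.5% (median change 0.31 over the 10 and -0.06 over all genes). Fos was 7.53, 8.47 and 9.34 in combination rats against 2.80, 3.11 and 8.71 in vehicle rats. The ranges overlapped only through rat3, and with 2 of 3 vehicle rats below background Fos was at least 6.20-fold higher (fitted change 3.57 ± 0.98, adjusted p = 0.00468). Without rat1 or rat2, the vehicle rats below background, the adjusted p was 0.0695 or 0.0572. Jun, the AP-1 partner of Fos, was 10.03, 9.04 and 10.58 in combination rats against 7.50, 8.62 and 8.99 in vehicle rats. All combination rats were above all vehicle rats, narrowly for rat62 and rat3, with a change of 1.52 ± 0.40 (2.86-fold, adjusted p = 0.00306). Without rat1 the adjusted p for Jun was 0.0537.

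Egr2 was 4.55, 7.05 and 5.97 in combination rats at 3 h against 3.69, 4.03 and 4.76 in vehicle rats. Rat61 lay inside the vehicle range, and Egr2 was at least 2.57-fold higher (fitted change 1.70 ± 0.44, adjusted p = 0.00286). Without rat62 the adjusted p was 0.0708. Ier3 was 8.65, 7.80 and 9.78 in combination rats against 9.51, 9.57 and 9.75 in vehicle rats, with rat63 at the top of all 6. It fell by 0.86 on the log2 scale (adjusted p = 0.0280), and the call was lost without any one of rat2, rat3, rat61 or rat62 (adjusted p = 0.0581, 0.0812, 0.0724 and 0.374). With all vehicle rats as 1 control the change of Ier3 was -0.45 (adjusted p = 0.207). A fit to the 6 rats alone called none of the 4 (adjusted p = 0.0599 to 0.193). Egr1 differed by 1.21 ± 0.54 (adjusted p = 0.0818), and Fosl1, Junb, Nr4a1, Ier2 and Myc by between -0.15 and 0.48.

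Galactosamine alone at 3 h showed more Egr2 and less Myc and Ier3 than vehicle. Of the 10 genes 3 were called, 1 higher and 2 lower, near the share of all genes, 32.9% (medians -0.36 and 0.00). Egr2 was 6.62, 6.21 and 6.72 in galactosamine rats against 3.69, 4.03 and 4.76 in vehicle rats, with no overlap. It was at least 4.05-fold higher (fitted change 2.36 ± 0.44, adjusted p = 4.56e-05), and this was its highest mean of all 17 groups. Myc was 6.12, 6.00 and 6.22 in galactosamine rats against 7.13, 7.79 and 8.61 in vehicle rats. The galactosamine rats lay within 0.22 of each other and below all vehicle rats, a fall of 1.73 ± 0.43 on the log2 scale (3.31-fold lower, adjusted p = 0.00166). Ier3 was 8.22, 8.36 and 8.46 against 9.51, 9.57 and 9.75, a fall of 1.26 ± 0.31 (adjusted p = 0.00127), again with no overlap. These 3 calls held without each rat in turn. Fos was 6.67, 7.07 and 7.65 in galactosamine rats, below rat3 and above the other vehicle rats, and its difference did not pass (at least 2.49-fold higher, adjusted p = 0.0735). Without rat3 it was at least 6.77-fold higher (adjusted p = 2.15e-04).

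Nevirapine at 3 h after its first dose showed more Fos, Jun, Egr1 and Nr4a1 than vehicle. Of the 10 genes 4 were called, all higher, against 15.1% of all genes in either direction and 7.59% higher (medians 0.83 and -0.04). Jun was 10.22, 10.70 and 11.20 in nevirapine rats against 7.50, 8.62 and 8.99 in vehicle rats, with no overlap. The change was 2.34 ± 0.40 (5.05-fold, adjusted p = 9.10e-05). Egr1 was 10.96, 10.05 and 11.22 against 7.96, 8.15 and 9.46, also apart, with a change of 2.22 ± 0.54 (4.65-fold, adjusted p = 0.00428). Both calls held without each rat in turn. Nr4a1 was 6.69, 9.19 and 9.13 in nevirapine rats against 5.70, 6.69 and 6.28 in vehicle rats. Rat31 was at the level of the highest vehicle rat while the other two stood far above. The change was 2.11 ± 0.64 (adjusted p = 0.0211), and without rat1, rat32 or rat33 its adjusted p was 0.0935, 0.127 and 0.108. Fos was 9.76, 7.35 and 7.75 in nevirapine rats, at least 5.53-fold higher (fitted change 3.41 ± 0.98, adjusted p = 0.0150), a call that ended without rat1, rat2 or rat31 (adjusted p = 0.146, 0.128 and 0.0942). In a fit to the 6 rats alone the adjusted p was 0.0669 for Nr4a1 and 0.165 for Fos.

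The combination and galactosamine alone could be set side by side at 3 h, where both groups were 3 h past the injection. Jun and Myc were higher in combination rats, and these were 2 of the 10 genes called, against 17.7% of all genes in either direction and 10.6% higher. Jun was 10.03, 9.04 and 10.58 in combination rats against 8.14, 8.24 and 7.79 in galactosamine rats, a difference of 1.83 ± 0.40 (adjusted p = 0.00103) with no overlap. Myc was 7.93, 6.74 and 9.30 against 6.12, 6.00 and 6.22, a difference of 1.88 ± 0.43 (adjusted p = 0.00196). The combination rats were spread widely, and without rat63 the difference in Myc was 1.22 (adjusted p = 0.0571), while in a fit to the 6 rats alone its adjusted p was 0.0845. Egr2 differed by -0.66 with a 95% interval of -1.55 to 0.23, so that over all arrays a difference of either sign was not resolved. Without rat62 Egr2 was called lower (-1.26, adjusted p = 0.0443). The same fit called Junb and Ier3 higher (1.41 and 0.87, adjusted p = 0.00341 and 0.0394).

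Other genes of the network were counted at 3 h as a description, beside the 32.5%, 32.9% and 15.1% of all genes called for the combination, galactosamine and nevirapine. Of 11 other AP-1 and related factors, 3 rose and 1 fell in combination livers, a share near that of all genes, 3 rose and 2 fell in galactosamine livers and 2 rose and 1 fell in nevirapine livers. Atf3, a stress-induced partner of Jun, was at least 9.83-fold higher in combination rats, 2.60-fold higher in galactosamine rats and 7.88-fold higher in nevirapine rats, each as a lower bound against vehicle. Of 33 other immediate early genes, 13 rose and 2 fell in combination livers, 11 rose and 6 fell in galactosamine livers and 8 rose and 2 fell in nevirapine livers. Ccn2, a matricellular growth regulator, rose in all 3 (changes of 2.27, 1.69 and 1.89). Dusp1, a phosphatase that switches off MAP kinases, fell by 1.21 in combination livers and by 1.30 in galactosamine livers. Macrophage markers rose in 5 of 5 genes in combination and in galactosamine livers and in 4 of 5 in nevirapine livers. Their mean log2 level was 8.85 to 9.07 in combination rats, 8.15 to 8.44 in galactosamine rats, 7.49 to 8.34 in nevirapine rats and 6.64 to 7.65 in vehicle rats, and their part in the changes of the 10 genes was not tested. Endothelial markers rose in 3 of 5 genes in combination livers and 5 of 5 in galactosamine livers (8.88 to 9.30 in combination rats and 9.41 to 9.45 in galactosamine rats against 8.44 to 8.81 in vehicle rats). Hepatocyte markers fell in 3 of 6 genes in combination livers and 1 of 6 in galactosamine livers (12.70 to 12.96 and 12.81 to 12.85 against 13.13 to 13.18 in vehicle rats). The largest of these falls was that of the hepatocyte factor gene Hnf4a, by 1.18 in combination livers and by 1.61 in galactosamine livers. No endothelial or hepatocyte gene was below background, and their part in the changes was not tested either.

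**Figure D3:**
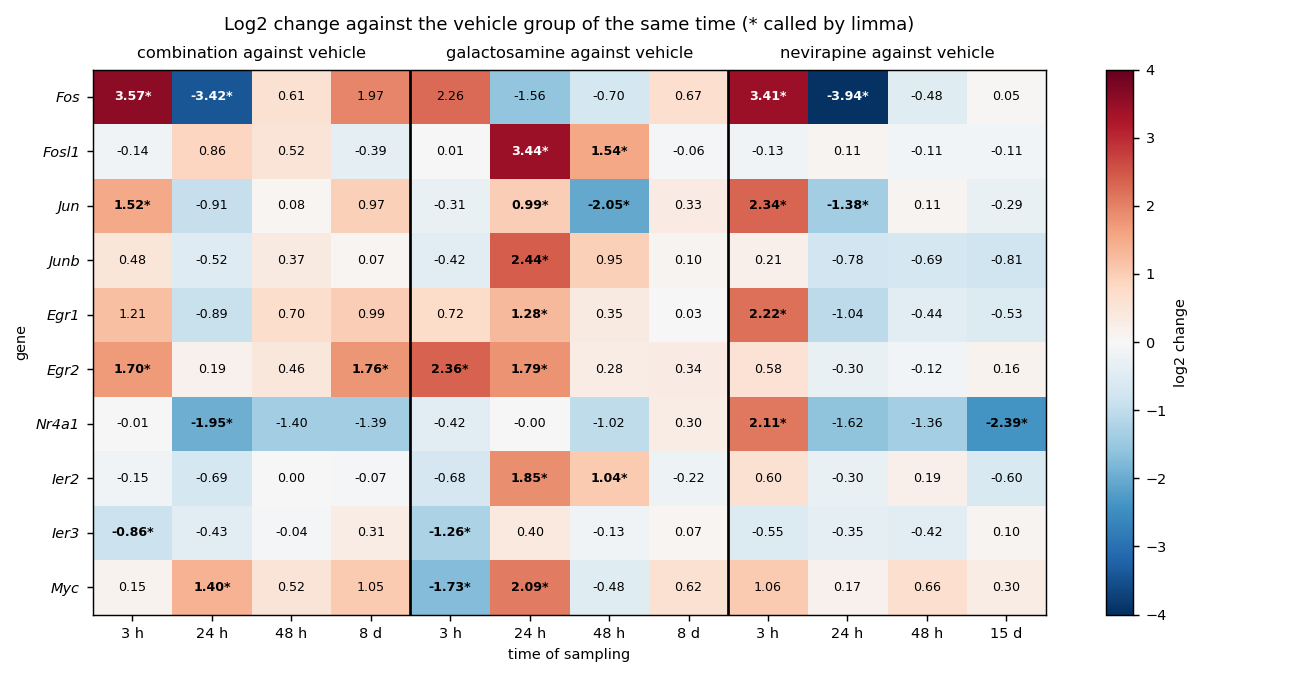
Log2 change of each gene (rows) against the vehicle group of the same time (columns, by treatment and time of sampling; the combination at 8 d is set against vehicle at 15 d), with the change printed and coloured and an asterisk where limma called it. Changes of Fos and Egr2 are of measured signals and include rats below background. Galactosamine at 24 h holds 7 called rises and galactosamine at 8 d no call.

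At 24 h after galactosamine alone, 7 of the 10 genes were higher than in vehicle livers and none was lower. The 7 were Fosl1, Jun, Junb, Egr1, Egr2, Ier2 and Myc, against 58.8% of all genes called in either direction and 30.2% called higher. The median change over the 10 was 1.54 and over all genes -0.07. Fosl1 was 7.72, 9.53 and 8.46 in galactosamine rats against 5.24, 5.14 and 5.01 in vehicle rats. Its groups were far apart, with a change of 3.44 ± 0.36 (10.8-fold, adjusted p = 1.04e-10), while Fos, the other Fos-family gene, was 4.56, 4.95 and 6.80 against 7.01, 4.56 and 9.43 and was not called (change -1.56 ± 0.98, adjusted p = 0.168). Junb was 9.71, 9.66 and 11.26 in galactosamine rats against 8.10, 7.25 and 7.96 in vehicle rats, 5.42-fold higher with no overlap (change 2.44 ± 0.35, adjusted p = 1.41e-07). Jun was 10.34, 10.44 and 11.43 against 9.89, 9.24 and 10.11, a smaller gap, with a change of 0.99 ± 0.40 (adjusted p = 0.0299). Without rat5 or rat24 the adjusted p for Jun was 0.157 and 0.209.

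Egr2 was 5.17, 6.17 and 7.58 in galactosamine rats at 24 h against 4.30, 4.0 and 5.25 in vehicle rats. Rat22 lay just below the highest vehicle rat, and the fitted change was 1.79 ± 0.44 (at least 3.12-fold higher with 2 of 3 vehicle rats below background, adjusted p = 6.10e-04). Egr1 was 9.62, 9.83 and 12.27 against 9.43, 8.31 and 10.12. The ranges overlapped and rat24 stood far above, so that the change of 1.28 ± 0.54 (adjusted p = 0.0389) was 0.44 without rat24 (adjusted p = 0.502). The call for Egr1 also ended without rat4 or rat5 (adjusted p = 0.0585 and 0.257) with a trended and robust prior (0.0517) and in a fit to the 6 rats alone (0.157). Nr4a1 was 6.82, 6.78 and 7.49 in galactosamine rats against 6.07, 6.09 and 8.95 in vehicle rats, with nearly equal means.

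Ier2 was 10.04, 9.70 and 11.86 in galactosamine rats at 24 h against 8.99, 8.15 and 8.89 in vehicle rats, 3.61-fold higher with no overlap (change 1.85 ± 0.32, adjusted p = 3.97e-06). Myc was 8.95, 10.40 and 11.20 against 8.34, 7.98 and 7.98, 4.25-fold higher with no overlap (change 2.09 ± 0.43, adjusted p = 7.05e-05). Ier3 was 9.56, 10.61 and 9.80 against 9.50, 9.61 and 9.68, a change of 0.40 ± 0.31 that did not pass (adjusted p = 0.270). The calls for Fosl1, Junb, Egr2, Ier2 and Myc held without each rat in turn. Endothelial markers fell in 3 of 5 genes (7.92 to 8.41 in galactosamine rats against 8.48 to 8.72 in vehicle rats), and macrophage markers rose in 1 of 5 (7.15 to 7.39 against 7.07 to 7.11), with no gene of either list below background. Their part in the changes of the 10 genes was not tested.

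In combination livers at 24 h, 3 of the 10 genes were called against vehicle, Myc higher and Fos and Nr4a1 lower. This count was near the share of all genes called, 36.7% (medians -0.60 and -0.01). Myc was 8.81, 9.31 and 10.39 in combination rats against 8.34, 7.98 and 7.98 in vehicle rats, with a change of 1.40 ± 0.43 and no overlap (2.65-fold, adjusted p = 0.00887). Without rat79, the highest, the adjusted p was 0.114. Fos was 3.66, 2.80 and 4.28 in combination rats against 7.01, 4.56 and 9.43 in vehicle rats, at least 6.19-fold lower (adjusted p = 0.00487). Nr4a1 was 5.01, 5.17 and 5.07 against 6.07, 6.09 and 8.95, lower by 1.95 ± 0.64 (adjusted p = 0.0140). Both falls were set against a vehicle group in which rat6 was high, and without rat6 the bound for Fos was 2.67-fold (adjusted p = 0.0914) and the adjusted p for Nr4a1 was 0.241. A fit to the 6 rats alone gave 0.0584 for Nr4a1. With all 15 vehicle rats as 1 control it was 0.342 for Fos and 0.0517 for Nr4a1. Fosl1 was 5.13, 5.18 and 7.67 in combination rats, with rat79 alone above the vehicle level, and was not called (change 0.86, adjusted p = 0.0561). It was called higher with all vehicle rats as 1 control (0.00381) and without rat67 or rat69 (0.00605 and 0.00740). Without rat79, Jun and Ier3 were called lower (adjusted p = 0.00475 and 0.0361), and without rat5, Jun and Ier2 (0.0380 and 0.0330).

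Nevirapine livers at 24 h were lower than vehicle in Fos and Jun, 2 of the 10 genes, against 11.2% of all genes in either direction and 6.63% lower. Fos was 3.00, 2.96 and 3.22, below background in every nevirapine rat and at least 6.19-fold below the same vehicle rats (adjusted p = 0.00561). Jun was 8.35, 8.02 and 8.72 in nevirapine rats against 9.89, 9.24 and 10.11 in vehicle rats, lower by 1.38 ± 0.40 (adjusted p = 0.0171) with no overlap. Neither call held without rat6 (bound of 2.67-fold and adjusted p = 0.0831 for Fos, 0.0800 for Jun) or with all vehicle rats as 1 control (0.261 and 0.779), and that for Jun also ended without rat4 or rat38 (0.0699 and 0.0877) and with the mean of its probe sets (0.0611).

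The combination differed from galactosamine alone at 24 h in 8 of the 10 genes, all lower, against 37.8% of all genes in either direction and 21.6% lower (medians -1.93 and 0.03). Junb was 6.93, 7.03 and 7.81 in combination rats against 9.71, 9.66 and 11.26 in galactosamine rats, 7.74-fold lower (difference -2.95 ± 0.35, adjusted p = 1.06e-08). Fosl1 was 5.13, 5.18 and 7.67 against 7.72, 9.53 and 8.46, where rat79 came close to the lowest galactosamine rat (difference -2.57 ± 0.36, adjusted p = 2.78e-07). Ier2 was 7.73, 7.85 and 8.39 against 10.04, 9.70 and 11.86 (difference -2.54 ± 0.32, adjusted p = 3.25e-08). In these 3 genes no combination rat reached any galactosamine rat. Jun was 8.00, 8.59 and 9.90 against 10.34, 10.44 and 11.43, also apart (difference -1.90 ± 0.40, adjusted p = 1.62e-04). Egr1 was 6.98, 8.79 and 9.41 against 9.62, 9.83 and 12.27 (difference -2.18 ± 0.54, adjusted p = 0.00126). The calls for these 5 genes held without each rat in turn, although a fit to the 6 rats alone did not call Egr1 (adjusted p = 0.107).

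Each of the other 3 calls of this comparison ended without at least 1 rat. Egr2 was 4.59, 4.07 and 5.44 in combination rats against 5.17, 6.17 and 7.58 in galactosamine rats (at least 2.84-fold lower, fitted difference -1.60 ± 0.44, adjusted p = 0.00342), and Nr4a1 was 5.01, 5.17 and 5.07 against 6.82, 6.78 and 7.49 (difference -1.95 ± 0.64, adjusted p = 0.0141). Nr4a1 was apart in all 6 rats, whereas Egr2 overlapped. Without rat24 the difference was -0.97 for Egr2 (adjusted p = 0.0888) and -1.72 for Nr4a1 (adjusted p = 0.0628). Ier3 differed by -0.83 ± 0.31 (adjusted p = 0.0315), and without rat23, rat67 or rat69 its adjusted p was 0.234, 0.131 and 0.213. A fit to the 6 rats alone gave 0.102 for Egr2 and 0.192 for Ier3. Myc was not called (difference -0.68, 95% interval -1.56 to 0.19), and neither was Fos, which was below background in all 3 combination rats (at least 2.10-fold lower, adjusted p = 0.136). Without rat22, Myc was called lower (difference -1.30, adjusted p = 0.0180).

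The GAPDH difference was 0.18 to 0.28 in combination rats at 24 h against 0.39 to 0.53 in galactosamine rats. With this difference as a covariate the same 8 genes were called, with changes between -3.03 (Junb) and -0.88 (Ier3). Macrophage markers rose in 5 of 5 genes (mean log2 level 8.14 to 8.50 in combination rats against 7.15 to 7.39 in galactosamine rats), endothelial markers in 4 of 5 (8.50 to 8.91 against 7.92 to 8.41) and erythroid markers in 2 of 2 (8.86 to 10.41 against 8.05 to 8.46). None of these lists had a gene below background in these groups, and their part in the difference was not tested.

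**Figure D4:**
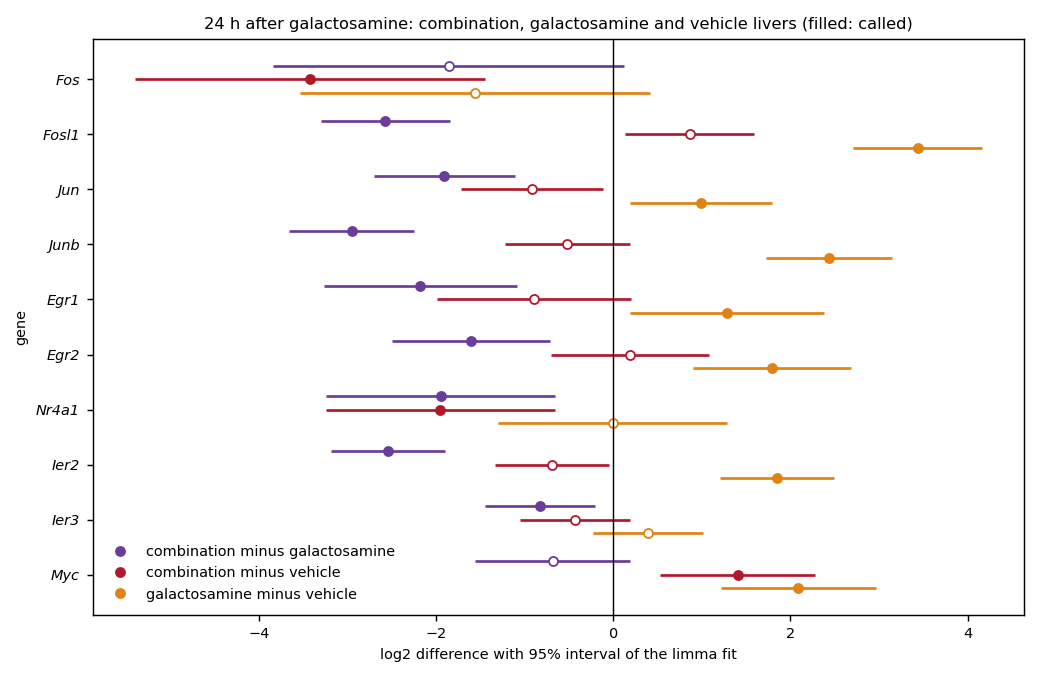
Log2 differences at 24 h with 95% intervals (horizontal axis) for each gene (vertical axis), for combination minus galactosamine, combination minus vehicle and galactosamine minus vehicle; filled points were called by limma. The 8 filled points of combination minus galactosamine lie below 0, and the 7 filled points of galactosamine minus vehicle lie above it.

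Genes of the same network were counted at 24 h as a description, beside the 58.8% of all genes called for galactosamine against vehicle (30.2% higher) and the 37.8% called for the combination against galactosamine (21.6% lower). Of 11 other AP-1 and related factors, 7 rose and 1 fell in galactosamine against vehicle livers, and 6 fell and none rose in combination against galactosamine livers. Atf3 was at least 50.9-fold higher in galactosamine than in vehicle livers, with 1 vehicle rat below background, and lower in combination than in galactosamine livers by 4.21 ± 0.62. Maff, a small Maf protein, was at least 24.3-fold higher in galactosamine livers, and Jund, the third Jun-family gene, was higher by 2.27 ± 0.16. Of 33 other immediate early genes, 17 rose and 2 fell in galactosamine livers, with changes of 3.69 for the zinc finger factor gene Klf6 and 3.13 for Ier5, and 16 fell and 1 rose in combination against galactosamine livers. The 19 called of 33 were near the share of all genes, as were the 5 of 9 ERK feedback inhibitors and the 9 of 15 inputs described next. Of 11 SRF, CREB and MEF2 factor genes, 9 rose in galactosamine livers, with Srf itself higher by 1.25 ± 0.18, and 8 fell in combination against galactosamine livers. Among feedback inhibitors of ERK signalling, 4 of 9 rose and 1 fell in galactosamine livers, with Dusp5 higher by 4.21 ± 0.42. Among growth factor and cytokine inputs, 6 of 15 rose and 3 fell, with the TWEAK receptor gene Tnfrsf12a higher by 6.12 ± 0.32 and Tgfa, an EGF receptor ligand, by 1.46 ± 0.18.

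Known targets were also counted, beside the same shares and the 36.7% of all genes called for the combination against vehicle. Of 18 MYC targets, 13 rose in galactosamine livers and 3 fell (median 1.38), and 13 rose and 1 fell in combination livers (median 1.05). Nolc1 and Nop56, which act in ribosome assembly, were higher by 2.65 and 2.57 in galactosamine livers and by 1.54 and 1.57 in combination livers, and Odc1, the entry enzyme of polyamine synthesis, by 1.99 and 1.53. Between combination and galactosamine livers 9 of the 18 fell and 1, the transferrin receptor gene Tfrc, rose. Of 14 AP-1 targets 8 rose in galactosamine livers, among them Timp1, a protease inhibitor gene, by 2.54 ± 0.36, and 7 rose in combination livers. Of 7 EGR targets 3 rose and 2 fell in galactosamine livers, with the growth factor gene Pdgfa at least 13.1-fold higher. The lists were drawn from general knowledge with earlier results of these data known, and they are descriptions.

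At 48 h few of the 10 genes were called against vehicle. In combination livers none was called by limma, against 15.9% of all genes, and 1 had an unadjusted p under 0.05. In nevirapine livers none was called, against 17.4%, and again 1 had an unadjusted p under 0.05. A fit to the compared groups alone called Junb and Nr4a1 lower and Myc higher in nevirapine livers (adjusted p = 0.035, 0.046 and 0.042). In galactosamine livers, with 2 rats, 3 were called, not above the share of all genes (39.4%). Jun was 6.84 and 6.98 in galactosamine rats against 8.68, 8.68 and 9.52 in vehicle rats, lower by 2.05 ± 0.44 (4.14-fold lower, adjusted p = 2.92e-04) and its lowest mean of the 17 groups. Fosl1 was 6.43 and 6.79 against 5.17, 4.79 and 5.26, higher by 1.54 ± 0.40 (adjusted p = 0.00232). Both groups were apart in both genes. Junb was also apart (8.00 and 8.25 against 7.17, 7.22 and 7.13, change 0.95) but was not called. It was called in a fit to the compared groups alone (adjusted p = 4.51e-04), with all vehicle rats as 1 control (0.0438) and without the dimmest genes (0.0429). Ier2 was 8.97 and 9.13 against 8.00, 7.98 and 8.05, higher by 1.04 ± 0.36 (adjusted p = 0.0189), and its call ended without rat26 or rat27 (adjusted p = 0.0638 and 0.121).

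Against galactosamine at 48 h, combination livers had more Jun and less Ier2, 2 of the 10 genes against 29.3% of all. Jun was 8.58, 9.26 and 9.29 in combination rats against 6.84 and 6.98 in galactosamine rats, higher by 2.13 ± 0.44 (adjusted p = 2.78e-04). Jun thus stood above galactosamine at 3 h and 48 h and below it at 24 h, and these 3 calls held without each rat in turn. At 48 h that leaves 1 galactosamine rat, which is then taken to vary like the other groups. Ier2 was 7.81, 8.74 and 7.48 against 8.97 and 9.13, lower by 1.04 ± 0.36 (adjusted p = 0.0249), and its adjusted p was between 0.0635 and 0.154 without rat26, rat27, rat70 or rat72 and 0.102 in a fit to the 5 rats alone.

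Over time in galactosamine livers, most of the 10 genes were higher at 24 h than at 3 h and 48 h. These steps compare treated groups directly, with no vehicle course subtracted. In vehicle rats the median of 3 h minus 24 h over the 10 was -0.44 (Jun 8.37 against 9.74), although none was called. Rats at 3 h were 5 h past the last oral dose and later rats 2 h, so time and this interval cannot be told apart. Fos and Egr2 had their highest means at 3 h (7.13 for Fos and 6.52 for Egr2, then 5.44 and 6.31 at 24 h), and the fall of Fos was called in a fit to those 6 rats alone (adjusted p = 0.0216) but not over all arrays. Between 3 h and 24 h, 7 of the 10 genes rose and none fell, against 68.2% of all genes in either direction and 32.8% higher, with the largest changes in Myc (4.07 ± 0.43), Fosl1 (3.38 ± 0.36), Ier2 (3.07 ± 0.32) and Junb (2.91 ± 0.35). Between 24 h and 48 h, 8 of the 10 fell, all but Fos and Nr4a1, against 45.2% of all genes in either direction and 22.5% lower, by between 0.94 (Ier3) and 3.83 (Jun). Myc was 6.12, 6.00 and 6.22 at 3 h, 8.95, 10.40 and 11.20 at 24 h, and 6.50 and 7.39 at 48 h. Of these calls, that for Egr1 between 3 h and 24 h ended without rat17 or rat24 (adjusted p = 0.0821 and 0.434) and with the GAPDH difference as a covariate (0.108), and those for Egr1 and Ier3 between 24 h and 48 h ended without rat24 or rat26 (0.145 and 0.0863) and without rat23 or rat27 (0.170 and 0.183). Fits to the compared groups alone lost Egr1 between 3 h and 24 h (0.0856) and Egr1, Egr2, Ier2 and Ier3 between 24 h and 48 h (0.101, 0.0528, 0.104 and 0.0578). They called Nr4a1 at both steps (0.00173 and 0.0122) and Fos between 24 h and 48 h (0.0420).

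Combination livers, compared over time in the same way and with the same limits, followed another course. Between 3 h and 24 h, 5 of the 10 fell and 2 rose, against 41.2% of all genes. Fos was 7.53, 8.47 and 9.34 at 3 h and 3.66, 2.80 and 4.28 at 24 h, at least 16.9-fold lower (adjusted p = 8.13e-05), a call that held without each rat in turn. The other 6 were Jun, Junb and Egr1, which fell by 0.94 to 1.34, Egr2, at least 2.08-fold lower, and Fosl1 and Myc, which rose by 0.96 and 1.51. Each of these 6 calls ended without at least 1 of rat61, rat62, rat63, rat67, rat69 or rat79, with the highest adjusted p, 0.774, for Fosl1 without rat79, and a fit to the 6 rats alone called Fos and none of the other 6. Between 24 h and 48 h Myc was the 1 gene called, against 28.5% of all genes. It fell by 1.56 ± 0.43 (adjusted p = 0.00506), and without rat79 its adjusted p was 0.0773.

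At 8 d after the injection, with 15 d of oral dosing behind them, combination livers had more Egr2 than vehicle livers. Over all arrays it was the 1 gene called of the 10, against 24.8% of all genes, while 6 of the 10 were apart. Egr2 was 6.24, 5.53 and 5.63 in combination rats against 3.96, 4.15 and 4.0 in vehicle rats at 15 d, at least 2.70-fold higher with no overlap (adjusted p = 0.00285), and the call held without each rat in turn. Fos was 5.62, 7.62 and 5.51 in combination rats against 4.05, 4.42 and 4.38 in vehicle rats, apart but not called (at least 3.63-fold higher, adjusted p = 0.138). Jun was 9.90, 9.52 and 9.21 against 8.82, 8.79 and 8.12, apart too (change 0.97 ± 0.40, adjusted p = 0.0686), and so was Myc, with 8.66, 8.70 and 8.49 against 7.91, 7.41 and 7.38 (change 1.05 ± 0.43, adjusted p = 0.0699). With vehicle rats at 8 d as the control, Fos, Jun and Myc were called as well as Egr2 (Fos at least 3.69-fold higher, with all 3 vehicle rats below background, and changes of 2.14 and 1.27 for Jun and Myc). Nr4a1 differed by -1.39 against vehicle at 15 d (adjusted p = 0.107), and was called lower without rat15 (0.0416). Egr1 (9.18, 8.97 and 9.16 against 8.36, 7.89 and 8.08 at 15 d) and Fosl1 (4.76, 4.52 and 4.55 against 4.88, 4.96 and 5.16) were also apart. Besides Egr2, a fit to the compared groups alone called Fos, Jun, Egr1 and Myc higher and Fosl1 lower (adjusted p = 0.0199, 0.0152, 0.00178, 0.00224 and 0.0283).

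Galactosamine livers at 8 d differed from vehicle in none of the 10 genes and in 0.0352% of all genes by limma, and none of the 10 had an unadjusted p under 0.05. Nevirapine livers at 15 d were lower in Nr4a1, 1 of the 10 genes against 13.9% of all. It was 4.72, 4.90 and 4.87 in nevirapine rats against 8.94, 6.68 and 6.02 in vehicle rats, lower by 2.39 ± 0.64 (adjusted p = 0.00914), and without rat13 the adjusted p was 0.146. Junb and Ier2 were not called but were apart, with means of 5.61 against 6.41 and 7.54 against 8.14. A fit to the compared groups alone called Junb, Ier2 and Egr1 lower (adjusted p = 9.72e-04, 0.00144 and 0.0468). With all vehicle rats as 1 control Junb was called as well (0.00412). Combination at 8 d against nevirapine at 15 d, with 16 oral doses in each, gave 2 called genes, both higher, against 12.4% of all genes in either direction and 9.31% higher. Egr2 was 6.24, 5.53 and 5.63 in combination rats against 4.13, 4.13 and 4.31 in nevirapine rats, at least 2.70-fold higher (adjusted p = 0.0110). Jun was 9.90, 9.52 and 9.21 against 8.30, 8.19 and 8.37, higher by 1.26 ± 0.40 (adjusted p = 0.0291). Of the 10 genes, 8 were apart in all 6 rats, these 2 among them. A fit to the compared groups alone also called Junb, Egr1, Nr4a1, Ier2 and Myc higher (adjusted p = 0.0020, 0.0016, 0.02, 0.00584 and 0.00186). Egr1 was also called with the GAPDH difference as a covariate (0.0463). Leaving out rat73 gave an adjusted p of 0.0602 for Egr2, and leaving out rat43, rat44, rat45, rat73 or rat84 gave 0.0644 to 0.114 for Jun. The effect of the combination at 8 d minus that of galactosamine at 8 d, each against its own vehicle, called none of the 10 by limma, against 11.2% of all genes, and 1 had an unadjusted p under 0.05. For Egr2 the adjusted p was 0.131, and both of its vehicle groups were below background, so no size is given. The 2 vehicle groups subtracted differed in Jun, with means of 8.58 at 15 d and 7.40 at 8 d. Compared directly with galactosamine rats at 8 d, combination rats were called higher in Jun (by 1.81, adjusted p = 0.00166) and Egr2 (0.0394). Both genes were apart, with galactosamine rats at 7.32, 7.55 and 8.33 for Jun and 4.20, 4.58 and 4.67 for Egr2.

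Macrophage markers at the late times were called higher in 1 of 5 genes in combination livers at 8 d and in none of 5 in galactosamine livers at 8 d and nevirapine livers at 15 d. Their mean log2 level was 7.98 to 8.55 in combination rats and 7.86 to 8.02 in vehicle rats at 15 d. Mast cell markers rose in 3 of 3 genes (5.69 to 6.15 in combination rats at 8 d against 3.62 to 3.83 in vehicle rats at 15 d), with 1 gene below background in combination rats and 2 in vehicle rats. Stellate cell and fibroblast markers rose in 4 of 6 (7.05 to 7.35 against 6.25 to 6.46), with none below background. Both lists were apart, as Egr2 was, and their part in the change of Egr2 was not tested. Of 33 other immediate early genes, 7 rose and 2 fell in combination livers at 8 d, close to the 24.8% of all genes called, with Ccn2 higher by 2.74 ± 0.41, Gadd45b, a stress-induced growth arrest gene, by 1.55 ± 0.40 and Rhob, a small GTPase gene, by 1.52 ± 0.27. Of 11 other AP-1 factors 2 rose and 1 fell, also near that share, with Jund higher by 0.61 ± 0.16.

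Over the 17 groups, Fos was highest in combination livers at 3 h (8.45 ± 0.90, SD). Its lowest mean, in nevirapine livers at 24 h (3.06 ± 0.14), was 1 of 9 below background, whose order was not resolved. Fosl1 (8.57 ± 0.91), Jun (10.74 ± 0.60), Junb (10.21 ± 0.91), Ier2 (10.53 ± 1.16), Ier3 (9.99 ± 0.55) and Myc (10.18 ± 1.14) were highest in galactosamine livers at 24 h (SD, n = 3). Egr1 (10.74 ± 0.61) and Nr4a1 (8.34 ± 1.42) were highest in nevirapine livers at 3 h, and Egr2 (6.52 ± 0.27) in galactosamine livers at 3 h. The lowest groups were galactosamine at 3 h for Ier2, Ier3 and Myc and nevirapine at 15 d for Junb, Egr1 and Nr4a1. In the order of the 17 means, most neighbours overlapped in their rats. All 16 neighbouring pairs overlapped for Fos, Egr1 and Nr4a1, 15 of 16 for Fosl1, Jun, Egr2, Ier3 and Myc, 14 for Ier2 and 12 for Junb. Galactosamine at 24 h stood apart from the next group for Fosl1, Ier2 and Junb, and nevirapine at 3 h (10.70) came next below galactosamine at 24 h for Jun.

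The genes most like each member in their 17 group means were also listed, as a description of these libraries. Fosl1 ran closest with Map3k6 (r = 0.98), Myc with Rnf103 (r = 0.94), Ier3 with Axin2 (r = 0.93), Ier2 with Sh3pxd2b (r = 0.92), Fos with Ccn1 (r = 0.91), Junb with Nup42 (r = 0.91), Egr2 with Ccl2 (r = 0.90), Nr4a1 with Chac1 (r = 0.82), Egr1 with Slco3a1 (r = 0.81) and Jun with Egr1 (r = 0.75). Between pairs of the 10 the median correlation of group means was 0.50, and the highest, 0.85, was that of Fosl1 with Ier2. These values rest on 17 group means and carry no test.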

How the data were processed

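Affymetrix arrays read RNA from 50 rat livers. Log2 signal per probe set is what the authors deposited; the submitters' processing notes name RMA and limma without versions, and scanner files were not used here. Of 31099 probe sets, 20826 with 1 gene symbol gave 14217 genes (436 had several symbols and 9831 no entry), of which 4525 had more than 1 probe set. The probe set with the highest mean over all arrays stood for its gene, with no further scaling.

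Limma 3.58.1 in R 4.3.3 fitted 17 group means to all 50 arrays, and eBayes p-values were adjusted by Benjamini and Hochberg over 14217 genes. Named were all 10 genes in every comparison, up to 4 called genes of a list, 2 genes of a marker list, and the 3 most similar genes per member, of which the text gives the first. Members and lists were chosen with earlier results of these data known. The labels do not say whether rats were dosed in batches. The number of arrays limits the precision. Scripts were tested on simulated data. Tables and plots used Python 3.11.15, pandas 2.3.3 and matplotlib 3.10.9. Alternatives were other groups in the fit, another prior, dim genes left out (40%), the mean of probe sets, cyclic loess, other vehicle controls, the GAPDH difference as a covariate and each rat left out in turn. Leaving out rat31, rat63 and rat70 together was added after seeing the data.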

Additional observations from a re-analysis of the deposited data

Results flagged for a closer look

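A difference between the combination and galactosamine alone, each set against the same vehicle rats, passed limma's test for 12 changes of the 10 genes. At 3 h the difference was 1.83 for Jun and 1.88 for Myc. At 24 h it was -2.57 for Fosl1, -1.90 for Jun, -2.95 for Junb, -2.18 for Egr1, -1.60 for Egr2, -1.95 for Nr4a1, -2.54 for Ier2 and -0.83 for Ier3. At 48 h it was 2.13 for Jun and -1.04 for Ier2. Values are combination minus galactosamine on the log2 scale, from measured signals, and Egr2 had 1 of 3 combination rats below background at 24 h. With 3 rats or fewer in each group, single rats were not tested as outlying.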

How the results depend on the processing

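Among 66 called changes of the 10 genes, 30 kept their call under every alternative run for them, and none of the 66 changed sign. Of the 164 changes not called, 61 changed sign under some alternative. Counts of called genes moved by more than 1.5 times as follows. A fit to the compared groups alone gave 0 in place of 4 for the combination against vehicle at 3 h, 6 in place of 1 at 8 d, 5 in place of 3 for galactosamine at 48 h, and 2 in place of 4, 3 in place of 0 and 4 in place of 1 for nevirapine at 3 h, 48 h and 15 d. For the combination against galactosamine it gave 1 in place of 2 at 3 h, 5 in place of 8 at 24 h, 1 in place of 2 at 48 h and 2 in place of 0 at 8 d. It gave 7 in place of 2 for the combination at 8 d against nevirapine, 1 in place of 7 for the combination at 24 h against 3 h and 3 in place of 1 for vehicle at 15 d against 8 d. Leaving out the dimmest 40% of genes, which removes dim genes such as Egr2 from the test, gave 2 in place of 4 for the combination at 3 h, 0 in place of 1 at 8 d, 1 in place of 2 for nevirapine at 24 h, 1 in place of 2 for the combination at 8 d against nevirapine and 4 in place of 7 for the combination at 24 h against 3 h. All vehicle rats as 1 control gave 2 in place of 1 for the combination at 8 d, 5 in place of 3 for galactosamine at 3 h, 0 in place of 2 for nevirapine at 24 h and 2 in place of 1 at 15 d. Vehicle at 8 d as the control gave 4 in place of 1 for the combination at 8 d, and its direct comparison with galactosamine at 8 d gave 2 in place of 0. The mean of probe sets gave 1 in place of 2 for nevirapine at 24 h, a trended and robust prior 0 in place of 1 for vehicle at 15 d against 8 d, the GAPDH covariate 3 in place of 5 over the vehicle groups, and leaving out rat31, rat63 and rat70 together 3 in place of 7 for the combination at 24 h against 3 h. With each rat left out, counts against vehicle ranged from 2 to 4, 1 to 5, 0 to 0 and 1 to 2 for the combination (3 h, 24 h, 48 h, 8 d), 3 to 4, 5 to 7, 2 to 3 and 0 to 0 for galactosamine, and 2 to 5, 0 to 2, 0 to 0 and 0 to 1 for nevirapine. Combination against galactosamine ranged from 1 to 5, 6 to 9, 1 to 2 and 0 to 0, and combination at 8 d against nevirapine from 0 to 2. Time steps ranged from 3 to 5 and 0 to 1 for the combination and 6 to 7 and 7 to 8 for galactosamine. Vehicle at 3 h against 24 h ranged from 0 to 2, vehicle at 15 d against 8 d from 0 to 1, and the 5 vehicle groups from 2 to 5. Causes of these shifts were not tested. No paired analysis was possible because each rat number belongs to 1 group. Background correction and a slide or scan date block were not run, since processed signals were used and no date was used here. Signals near background limit changes of Fos and Egr2 to bounds where rats of the dimmer group lay below it.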
